A study of Mus musculus with 16 samples.

Results

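The data described here are 8 of the 16 mRNA-seq libraries of a study of GRP78 loss in mouse islet cells. They are the 4 libraries of Ad-LacZ control cells cultured with a JNK inhibitor and the 4 of Ad-LacZ cells cultured with DMSO. They were chosen by the treatment in their labels and paired by the preparation code in their titles (F1, M1, M2 and F2). The comparison asks what the inhibitor did to gene expression in cells that kept GRP78, the endoplasmic reticulum (ER) chaperone encoded by Hspa5.

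All 16 libraries came from pancreatic islets of Grp78 flox/flox mice that were dispersed to single cells, given an adenovirus, and kept for 72 hours in medium with 15 mM glucose. The controls therefore carried the floxed alleles and an adenovirus expressing LacZ as well. The inhibitor was JNK-IN-8, which acts on all JNK isoforms and was present from the start of the culture. The other 8 libraries are the same treatments after Ad-Cre, a virus that expresses Cre recombinase and removes Grp78. The methods speak of 2 female and 2 male mice, while each title gives 2 animal numbers, so whether a preparation pools animals is not stated.

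JNK is the last kinase of a cascade that stress signals switch on, and among its substrates are the AP-1 factors, c-Jun above all. AP-1 is a dimer of proteins of the Jun and Fos families, and it raises the transcription of the Jun gene itself. Dual-specificity phosphatases (DUSPs) remove the activating phosphates from JNK and related kinases. In islets, JNK signalling is known for its part in cell death under ER stress and under cytokines.

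Values were RPKM, read counts divided by gene length and by library size, and depth was 15.7 to 25.5 M reads in these 8 libraries. A gene was tested when it passed 1 RPKM in at least 4 of the 8, which left 11657 of 25105 genes. Fold changes are on the log2(RPKM + 1) scale after scaling, which understates those of low genes. Their p-values are from limma with the preparation as a block, adjusted by the Benjamini-Hochberg method over all genes tested. Hspa5, the floxed gene, had 478, 483, 395 and 396 RPKM (F1, M1, M2, F2) with DMSO and 458, 461, 348 and 372 with the inhibitor. The log2 change was -0.10 ± 0.08 (SE, n = 4 pairs, adjusted p = 0.71), so the groups differed by less than the test could separate.

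The inhibitor libraries of M2 and F2 stood apart from the other 6. Igkc, the constant region of immunoglobulin kappa chains and a product of B and plasma cells, had 1450 RPKM in M2 and 1904 in F2 with the inhibitor, but 0.798 to 12.6 in the other 6 libraries. Jchain, which joins immunoglobulin subunits in plasma cells, had 17.3 and 34.0 RPKM there and at most 0.101 in the other 6. The sum over 10 immunoglobulin constant region genes was 2108 and 3128 RPKM in these libraries against 1.30 to 19.4 in the other 6, and 0.940 to 343 in the Ad-Cre libraries. Genes of stromal cells stood apart in the same libraries. Cxcl14, a chemokine, had 212 RPKM in M2 and 70.0 in F2 with the inhibitor against at most 10.2 in the other 6. Igfbp4, which binds insulin-like growth factors, had 22.5 and 28.8 against at most 1.68. Dcn and Lum, proteoglycans of fibroblasts, had 6.71 and 4.35 in M2 and 13.3 and 9.43 in F2, against at most 1.98 and 0.666 in the other 6. Mgp was picked with these genes and had 18.3 RPKM in M2 and 30.4 in F2 with the inhibitor. Unlike them, it also rose clearly in the other preparations, from 2.19 to 8.98 in F1 and from 2.36 to 8.65 in M1. High values were not confined to these libraries in the whole series. In Ad-Cre with DMSO, M2 reached 19.6 for Dcn, 13.9 for Lum, 27.8 for Igfbp4 and 7.23 for Jchain. These genes were chosen after their values were seen. Bulk libraries cannot tell more cells of a type from more RNA per cell. Medians over F1 and M1 alone are therefore given for several lists that moved more in M2 and F2.

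With the inhibitor, 39 genes passed an adjusted p under 0.05 and a fold change above 1.2, 29 of them higher (0.249% of genes tested) and 10 lower (0.0858%). On RPKM without scaling, 17 were higher and 2 lower. All 39 moved the same way in all 4 preparations, and in 27 of them the groups did not overlap. The 39 were picked by a paired p on these values, so both counts follow in part from that choice. Of the 11657 genes tested, 1085 were higher and 1512 lower in all 4 preparations. Over all genes tested, the inhibitor group lay wholly above the DMSO group for 1.79% and wholly below it for 3.05%. At an unadjusted p under 0.05 with the same fold change, 570 genes were higher (4.89%) and 404 lower (3.47%). The median log2 change of all genes was -0.02. The adjusted p of the 39 genes lay between 0.0130 and 0.0490, so the list ends close to its threshold. Its last members were Cd36 and Hgsnat, while Spc25, Gm11789 and Gpnmb just missed it.

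**Figure D1:**
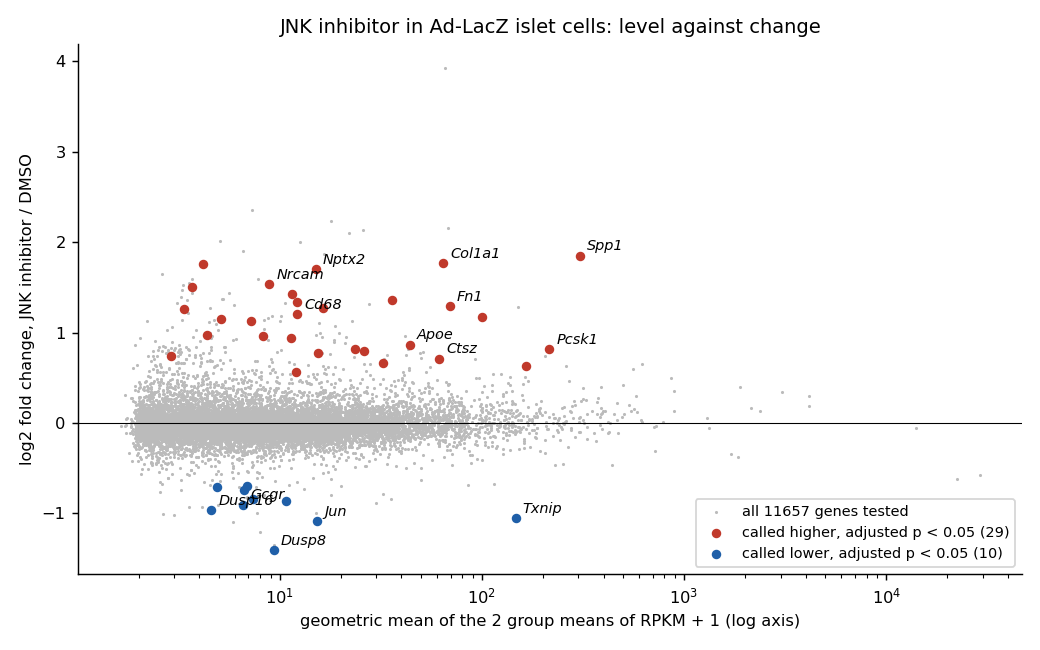
Each dot is 1 of 11657 genes, with the level on the x axis (geometric mean of the group means of RPKM + 1, log axis) and the log2 fold change of inhibitor over DMSO on the y axis. The 29 red genes and 10 blue genes passed the adjusted p; Txnip is the only blue gene at a level above 100, and Spp1 and Pcsk1 are the highest of the labelled red ones.

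The genes that fell were led by c-Jun itself and by the phosphatases of its kinase. Jun (chr4:95049034-95052222, minus strand, GRCm38) had 16.7, 15.7, 28.6 and 22.2 RPKM in F1, M1, M2 and F2 with DMSO. With the inhibitor it had 6.02, 6.12, 14.1 and 12.5 RPKM. Every inhibitor library was below every DMSO library, and the log2 change was -1.08 ± 0.09 (SE, adjusted p = 0.0372). An antisense gene overlaps Jun in the annotation, and the strand setting of the counting is not given in the sources used here, so reads from the opposite strand could be included.

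Dusp8 and Dusp16, which encode phosphatases that act on JNK, fell as well. Dusp8 went from 15.8, 12.7, 18.2 and 10.2 RPKM to 3.44, 4.59, 5.92 and 4.89, a log2 change of -1.40 ± 0.14 (adjusted p = 0.0429). Dusp16 went from 5.53, 4.62, 6.53 and 4.79 RPKM to 1.94, 1.65, 2.93 and 2.68, a log2 change of -0.96 ± 0.09 (adjusted p = 0.0386). Neither gene's groups overlapped, and Dusp8 had the largest fall of all called genes. Of 11 phosphatases of the family that could be tested, 5 were lower and 1 was higher at the unadjusted p, against 3.47% and 4.89% of all genes. The others below were Dusp1 (-0.39), Dusp26 (-0.33) and Dusp5 (-0.27), and the higher one was Dusp4 (0.34); their adjusted p did not pass. The list's median log2 change was -0.06.

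The promoters of Jun and Dusp8 are shown because both genes fell and each holds a site of the AP-1 and CRE family, to which Jun and ATF proteins bind. The sequences are from RefSeq (GRCm38.p6), read 5′ to 3′ on the strand of the gene, and end at the last base before the RefSeq start; capitals mark the site. In Jun it is TGACATCA, 45 bases before the start (chr4:95052223-95052372). In Dusp8 it is TGACGTCA, at 107 and again at 63 bases before the start (chr7:142095285-142095434).
Jun: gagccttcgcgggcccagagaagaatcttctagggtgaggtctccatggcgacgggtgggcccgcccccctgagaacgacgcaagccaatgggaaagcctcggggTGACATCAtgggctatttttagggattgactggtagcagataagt
Dusp8: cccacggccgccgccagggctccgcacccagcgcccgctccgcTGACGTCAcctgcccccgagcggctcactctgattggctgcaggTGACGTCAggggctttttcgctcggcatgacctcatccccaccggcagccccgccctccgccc

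Promoters of 300 bases (250 before the start to 50 after) were at hand for 9062 of the genes tested and 29 of the 39 called. TGACGTCA, which reads the same on both strands, stood in 3.83% of the 9062, in 1 of 7 of the called lower genes (Dusp8) and in 1 of 22 of the called higher ones (Pcsk1). The AP-1 site TGAGTCA or its reverse TGACTCA stood in 4.27% of all, in 0 of 7 lower and in 2 of 22 higher (Cd68 and Prom1). TGACATCA, a form chosen after it was seen in Jun, stood on either strand in 2.16% of all and, among called genes, in Jun, Col6a3 and Gla. Pcsk1 (chr13:75089743-75089822, plus strand) and Cd68 (chr11:69666277-69666356, minus strand) are shown beside them because they hold sites of these kinds and rose. Cd68 holds TGAGTCA at -149 and again at -24 from the start, and the stretch shown covers only the site at -149.
Pcsk1: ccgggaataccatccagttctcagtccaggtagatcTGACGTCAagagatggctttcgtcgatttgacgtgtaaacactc
Cd68: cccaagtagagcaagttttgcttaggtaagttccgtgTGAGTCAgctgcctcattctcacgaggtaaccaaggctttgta
Among genes past the unadjusted p, TGACGTCA stood in 0.971% of the 412 higher and 4.83% of the 290 lower ones that have a promoter, and TGAGTCA or TGACTCA in 6.8% and 4.48%.

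Other AP-1 factors moved less. Jund, which encodes JunD, had 125, 117, 115 and 69.5 RPKM with DMSO and 44.0, 70.7, 74.3 and 75.5 with the inhibitor. F1 was the lowest of the inhibitor group, F2 did not fall before scaling, and the log2 change of -0.68 ± 0.21 did not pass (adjusted p = 0.28). Fos was at a log2 change of 0.42 ± 0.16 (adjusted p = 0.36). Of the 11 AP-1 factors tested, 2 were lower and 1 higher at the unadjusted p, against 3.47% and 4.89% of all genes. Fosb stayed below the filter, with at most 0.440 RPKM. The kinases themselves moved little, with a median log2 change of -0.07 over 20 tested kinases and scaffolds of the pathway. Of these, 1 was lower at the unadjusted p, a share near the 3.47% of all genes. That gene was Mapk10, the JNK isoform of neurons and islets, with 6.13 to 7.15 RPKM in DMSO and 4.45 to 5.66 with the inhibitor (log2 change -0.35 ± 0.08, adjusted p = 0.175). Mapk8 and Mapk9, which encode the other JNK isoforms, were within 1 SE of 0.

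**Figure D2:**
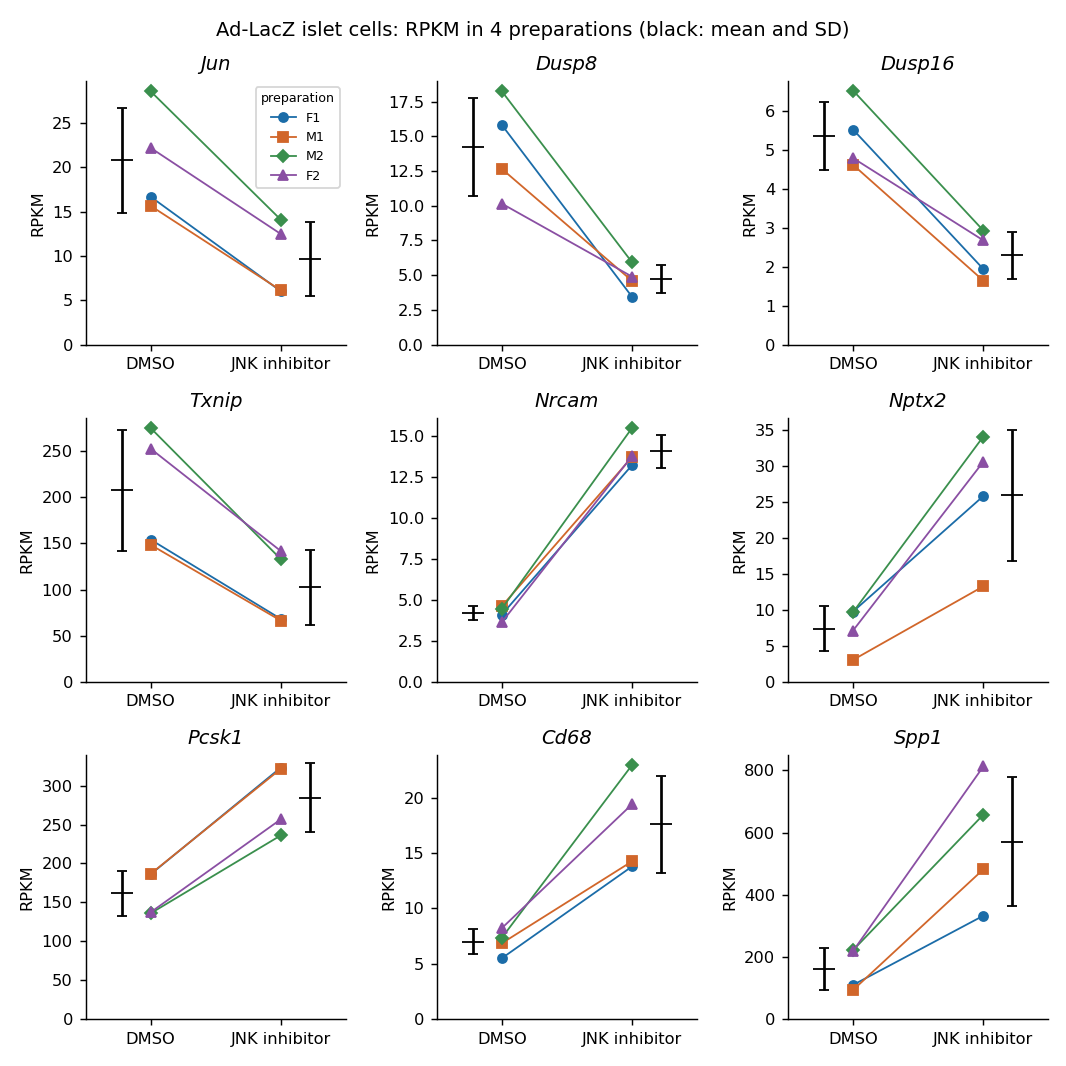
RPKM of 9 genes in the 8 libraries; lines join the DMSO and inhibitor libraries of a preparation, and black marks are the mean and SD of each group (n = 4). In Jun, Dusp8, Dusp16 and Txnip all 4 lines fall, and in Nrcam, Nptx2, Pcsk1, Cd68 and Spp1 all 4 rise; no pair of groups overlaps.

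Txnip was the most abundant of the genes that fell. It encodes thioredoxin-interacting protein, which binds thioredoxin and is strongly induced by glucose in beta cells. It had 154, 148, 275 and 253 RPKM with DMSO and 68.1, 66.2, 133 and 142 with the inhibitor. Both groups had their higher values in M2 and F2 and did not overlap, and the log2 change was -1.05 ± 0.07 (adjusted p = 0.0372). Of 7 genes listed for a relation to c-Jun, some as raised and some as suppressed by it, 6 passed the filter, and Txnip was the 1 among them that passed the adjusted p. Wee1, a kinase that holds back mitosis, was at -0.45 ± 0.10 with no overlap (adjusted p = 0.175). Lgals3, a galectin of macrophages and other cells that is listed as suppressed by c-Jun, was at 1.07 ± 0.29 (adjusted p = 0.22), with a mean log2 change of 0.42 in F1 and M1 and 1.72 in M2 and F2. The log2 changes of Nfatc2 (0.04), Pvr (-0.11) and Map1lc3b (0.01) were within 2 SE of 0.

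Genes that respond to glucose through ChREBP, a transcription factor of carbohydrate metabolism, were mixed. Of 19 tested, 6 were lower and 3 higher at the unadjusted p, against 3.47% and 4.89% of all genes. The median log2 change was -0.07. Beside Txnip, the lower ones were Pklr (-0.61), Rgs16 (-0.45), Klf10 (-0.42), Arrdc4 (-0.34) and Acly (-0.31), and the higher ones were Scd1 (0.66), Scd2 (0.49) and G6pc2 (0.35). None of these 8 passed the adjusted p.

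The remaining genes that fell were of varied kinds. Gcgr, the glucagon receptor, had 4.39, 5.12, 13.0 and 9.62 RPKM with DMSO and 1.66, 2.78, 5.15 and 5.63 with the inhibitor (log2 change -0.91 ± 0.10, adjusted p = 0.0445). Its groups overlapped because the preparations differed, while each pair fell. Klf11, a zinc-finger transcription factor, fell by 0.74 ± 0.08, Plekhg6 by 0.86 ± 0.07, and Sh2d5, an SH2 domain adaptor, by 0.71 ± 0.08 on the log2 scale. B630019K06Rik fell by 0.84 ± 0.09 and Plut by 0.69 ± 0.07. Plut is a long noncoding RNA that overlaps the start of Pdx1 on the other strand (chr5:147228596-147271521). Pdx1, a master transcription factor of beta cells, was at -0.11 ± 0.09 (adjusted p = 0.72), and without strand the reads of the overlap cannot be assigned. Gm11789 and Map3k7cl were the next lower genes by p, and missed the adjusted p; Map3k7cl was at -0.76 (adjusted p = 0.0533). Gm11789 is an antisense gene (chr11:120526855-120531784, minus strand) that overlaps Gcgr (chr11:120530699-120538986, plus strand), so the same limit on strand holds for this pair, and the falls of both may rest on shared reads.

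Among the genes that rose, Nrcam had the smallest p of all genes tested. It encodes a cell adhesion molecule of the immunoglobulin superfamily that is best known from neurons (chr12:44328885-44601964, plus strand). It had 4.11, 4.62, 4.47 and 3.64 RPKM with DMSO and 13.2, 13.7, 15.5 and 13.8 with the inhibitor. The groups lay far apart and each was narrow, and the log2 change was 1.53 ± 0.07 (adjusted p = 0.0130). Of 13 neural adhesion genes tested, 2 were higher and 3 lower at the unadjusted p, against 4.89% and 3.47% of all genes. The median was -0.06, so the rise was not shared over that list. L1cam, of the same family, was at -0.56 ± 0.09 (adjusted p = 0.0934).

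Further called genes rose beside it. Nptx2, a secreted pentraxin of synapses, went from 9.74, 3.04, 9.67 and 7.12 RPKM to 25.8, 13.2, 34.0 and 30.5 (log2 change 1.70 ± 0.09, adjusted p = 0.0147). M1 was the lowest in both groups, and the groups did not overlap. Kcnk9, a background potassium channel, went from 0.611 to 1.71 RPKM in DMSO to 3.67 to 15.2 (log2 change 1.76 ± 0.19, adjusted p = 0.0448). Pcsk1, the convertase that begins the cleavage of proinsulin, went from 186, 187, 136 and 137 RPKM to 323, 322, 236 and 257. Its log2 change was 0.82 ± 0.07 (adjusted p = 0.0372), and again the groups did not overlap. Smaller rises were those of Rgs4 (0.63 ± 0.07), a regulator of G protein signalling, and Diras2 (0.74 ± 0.07), a small GTPase. Cldn11, a tight junction protein, rose by 1.51, Lix1 by 1.13 and Prom1, a membrane protein of protrusions and of progenitor cells, by 0.80 on the log2 scale.

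Insulin itself was lower in each pair. Ins2 went from 42737, 40027, 24209 and 34809 RPKM to 24501, 29787, 17388 and 22915, a log2 change of -0.58 ± 0.12 that did not pass (adjusted p = 0.14). Ins1 was at -0.62 ± 0.16 (adjusted p = 0.21). The 2 genes held 23.4%, 22.9%, 15.7% and 19.3% of all RPKM in DMSO and 13.9%, 17.3%, 10.5% and 14.1% with the inhibitor. Every preparation thus had a lower share, while the ranges of the groups overlapped. Of 22 insulin and granule genes, 4 were higher (Pcsk1, Vgf at 0.78, Scg3 at 0.50 and Chga at 0.30) and 5 were lower (Ins1, Ins2, Pcsk1n at -0.47, Scg5 at -0.45 and Rab3a at -0.28), with a median of 0.09. Of 20 beta cell transcription factors, 1 was lower, and the median was -0.11, with 0.04 over F1 and M1 and -0.22 over M2 and F2. These list counts are at the unadjusted p, where 4.89% of all genes were higher and 3.47% lower. Gcg, glucagon, was at -0.06 ± 0.14 (adjusted p = 0.93), and of 13 alpha cell markers 1 was higher and 2 lower.

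Lysosomal genes were higher as a group. Of 41 lysosomal genes and targets of TFEB, the transcription factor of lysosome biogenesis, 16 were higher and 0 lower at the unadjusted p, against 4.89% and 3.47% of all genes, and 12 did not overlap between the groups, against 1.79%. The list's median log2 change was 0.20. Ctsz, a cathepsin, had 44.1, 44.8, 53.9 and 45.5 RPKM with DMSO and 67.6, 75.3, 91.6 and 77.4 with the inhibitor (0.71 ± 0.07, adjusted p = 0.0386). Gla, the lysosomal alpha-galactosidase, had 8.25 to 10.5 RPKM with DMSO and 11.9 to 16.1 with the inhibitor (0.57 ± 0.06, adjusted p = 0.0448). No library of the inhibitor group was as low as a DMSO library in either gene. The cathepsins Ctsd (0.75 ± 0.12) and Ctsb (0.55 ± 0.09) and Hexa (0.42 ± 0.08), a hexosaminidase subunit, had no overlap but missed the adjusted p (0.0879, 0.0911 and 0.13). The list's median was 0.16 over F1 and M1 and 0.24 over M2 and F2, with 32 and 39 of 41 genes above 0.

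Outside that list, 4 called genes also work in lysosomes or carry lipids. Lipa, the lysosomal acid lipase, was at 10.4 to 11.1 RPKM with DMSO and 16.5 to 21.7 with the inhibitor (0.77 ± 0.08, adjusted p = 0.0436). Hgsnat, which acetylates heparan sulphate for its breakdown, rose by 0.81 ± 0.09, Apoe, an apolipoprotein, by 0.86 ± 0.10 and Cd36, a fatty acid receptor, by 1.33 ± 0.15 on the log2 scale. In none of them did the groups overlap.

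Macrophage markers were higher too. All 11 tested markers had a positive log2 change, and the median was 0.75. At the unadjusted p 7 were higher, against 4.89% of all genes. These 7 did not overlap between the groups, against 1.79% of all genes. Cd68, a glycoprotein of macrophage lysosomes, had 5.48, 6.84, 7.33 and 8.2 RPKM with DMSO and 13.8, 14.2, 22.9 and 19.4 with the inhibitor (1.2 ± 0.11, adjusted p = 0.0386). Lyz2, a lysozyme of myeloid cells, had 25.1, 30.6, 26.3 and 36.0 RPKM and then 69.1, 92.9, 224 and 219 (2.15 ± 0.27, adjusted p = 0.0549). The mean log2 change over F1 and M1 and over M2 and F2 was 1.14 and 1.27 for Cd68 and 1.56 and 2.74 for Lyz2. Tyrobp (1.18), Ctss (0.99), C1qc (0.92), C1qa (0.75) and, by a narrow margin, Laptm5 (0.64) were the others without overlap. Among the remaining tested markers, Adgre1, Csf1r and C1qb fell in F1, with log2 changes of -0.09, -0.16 and -0.65. Their mean log2 changes were 0.08, 0.03 and -0.10 over F1 and M1, and 0.62, 0.92 and 1.47 over M2 and F2. Ptprc, Mrc1, Aif1 and Cx3cr1, which define leukocytes or macrophage subsets, stayed below the filter with at most 0.617, 1.58, 0.511 and 1.82 RPKM.

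The summed RPKM of the 15 listed markers was 94.7 to 107 with DMSO and 180 to 376 with the inhibitor. In F1 and M1, where immunoglobulin genes were near 0, it went from 100 to 180 and from 107 to 234. Lyz2, given above, made up a large part of both rises. Over F1 and M1 the median log2 change was 0.67, and over M2 and F2 it was 1.17. Several lysosomal genes are also strongly expressed by macrophages, and how much of their change came with this marker list was not tested. Chemokines that draw monocytes were higher as well. Ccl7 went from 0.954 to 1.49 RPKM to 3.83 to 4.81 (1.26 ± 0.11, adjusted p = 0.0372), and Ccl2 went from 1.70 to 3.36 RPKM to 4.60 to 5.10 (0.77 ± 0.10, adjusted p = 0.0591). Both were apart in all libraries.

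**Figure D3:**
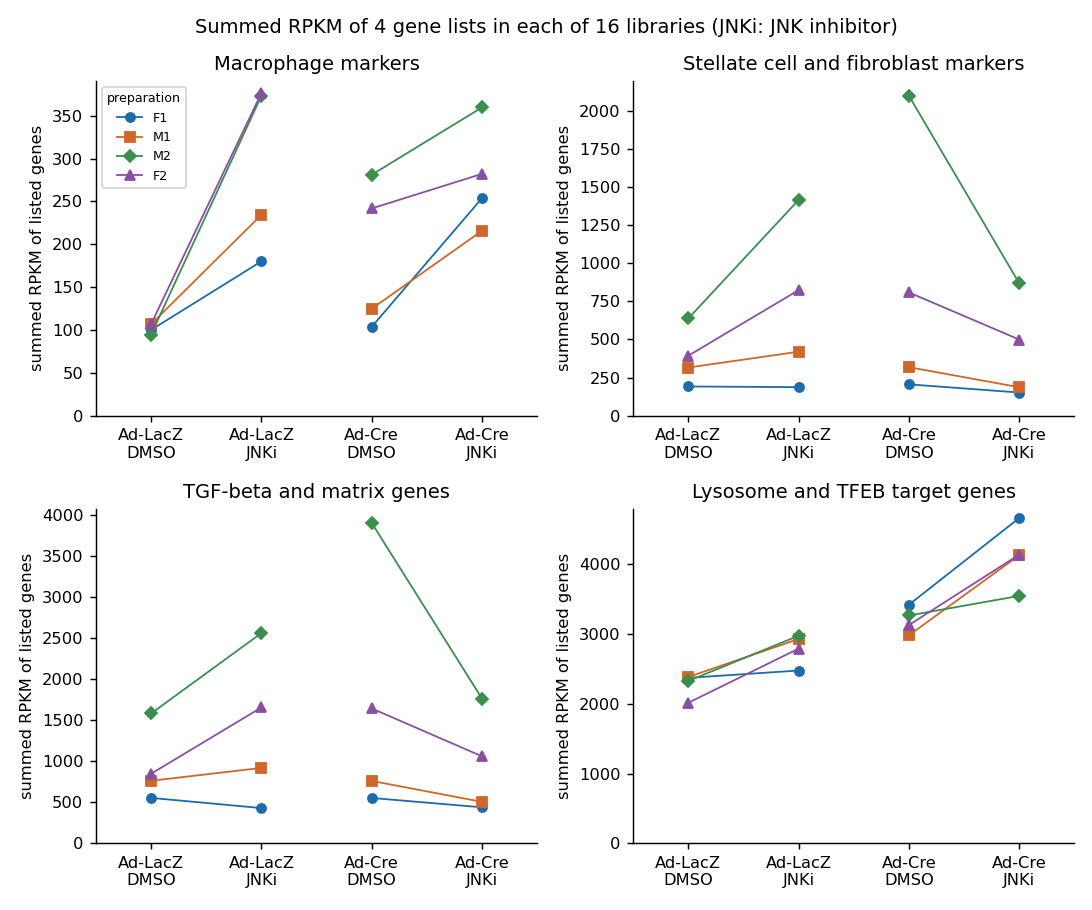
Summed RPKM of 4 gene lists in each of the 16 libraries, joined by preparation; the 2 left positions in each panel are Ad-LacZ and the 2 right ones Ad-Cre. In Ad-LacZ the macrophage and lysosome sums rise in 4 of 4 preparations and the matrix and stellate cell sums in 3 of 4, whereas in Ad-Cre the matrix and stellate cell sums fall in all 4.

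Matrix genes made up much of the rest. Of 25 genes of the extracellular matrix and TGF-beta signalling, 14 were higher and 2 lower at the unadjusted p. The shares of all genes were 4.89% and 3.47%, and the list's median log2 change was 0.60. Col1a1, a chain of type I collagen, had 13.1, 18.4, 60.3 and 31.6 RPKM with DMSO and 27.8, 58.1, 280.0 and 153 with the inhibitor (1.77 ± 0.19, adjusted p = 0.0445). Fn1, fibronectin, had 7.31, 13.3, 92.7 and 57.3 RPKM and then 14.1, 44.5, 231 and 144 (1.29 ± 0.12, adjusted p = 0.0394). In both genes M2 and F2 were high in either group, so the groups overlapped while every pair rose. Lox, which cross-links collagen, rose by 1.36 ± 0.12 and Inhba, a subunit of activin, by 0.94 ± 0.10. Tnc, tenascin C, was the other way at -0.89 ± 0.22 (adjusted p = 0.21), and Tgfb2 was at -0.36.

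Further called genes of matrix and secreted proteins were Spp1, Serpinf1, Aebp1, Timp1, Col15a1, Col6a3 and Angptl7. Spp1, osteopontin, had 109, 93.0, 221 and 219 RPKM with DMSO and 332, 481, 657 and 813 with the inhibitor, the largest rise of all called genes (1.85 ± 0.14, adjusted p = 0.0372). Its groups did not overlap. Timp1, an inhibitor of metalloproteinases, rose by 1.17 ± 0.10, and the other 5 rose by 0.96 to 1.43 on the log2 scale. The change of Spp1 was 2.04 over F1 and M1 and 1.66 over M2 and F2, whereas that of Col1a1 was 1.38 and 2.15.

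The stellate cell and fibroblast markers share genes with the matrix list, Col1a1 among them, so the changes of these lists are not independent. Of 8 markers tested, 5 were higher at the unadjusted p (Col3a1, Col1a2, Col1a1, Pdgfrb and Sparc), against 4.89% of all genes. Their list's median was 0.82. The summed RPKM of the 12 listed went from 192 to 187 in F1, from 316 to 419 in M1, from 637 to 1414 in M2 and from 393 to 823 in F2. The median of the stellate cell list was 0.38 over F1 and M1 and 1.27 over M2 and F2. That of the matrix list was 0.22 and 0.92. Acta2, the muscle actin of activated stellate cells, was at 0.25 and Thy1 at 0.00. Endothelial markers were mixed, with 1 of 9 higher (Plvap, 0.68) and 1 lower (Cdh5, -0.44). The part of these cell types in the matrix result was not tested.

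Target genes of AP-1, listed from general knowledge with earlier results of these data known, did not fall as a list with Jun. Of 24 tested, 10 were higher and 2 lower at the unadjusted p, against 4.89% and 3.47% of all genes. The median log2 change was 0.32. The higher ones included Spp1, Timp1, Hmox1 (0.97), Lif (0.89), Mmp14 (0.90), Il6 (0.79) and Ccl2, several of which are genes of matrix or inflammation. The lower ones were Ccnd1 (-0.38), cyclin D1, and Hbegf (-0.32), a growth factor. The median was 0.12 over F1 and M1 and 0.63 over M2 and F2.

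Stress and death genes were counted against the 4.89% of all genes that were higher and the 3.47% that were lower. Of 30 p53 targets, 3 were higher (Dcxr at 0.53, Perp at 0.36 and Tnfrsf10b at 0.34) and 0 lower, and the median was 0.12, with -0.02 over F1 and M1 and 0.23 over M2 and F2. Cdkn1a, which encodes p21, was at 0.22 ± 0.09 (adjusted p = 0.42), and Bax, a pore-forming member of the BCL2 family, was at 0.16 ± 0.12. Of 26 BCL2 family members and caspases, 2 were higher (Bcl2a1b at 0.86 and Casp6 at 0.29) and 1 was lower: Bmf, a BH3-only gene, with 2.26 to 3.28 RPKM in DMSO and 1.19 to 1.99 with the inhibitor (-0.50 ± 0.10, adjusted p = 0.13). The median of that list was -0.12 over F1 and M1 and 0.21 over M2 and F2.

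The 3 arms of the unfolded protein response had counts near those shares. Of 16 chaperones controlled by ATF6, 1 was higher and 0 lower, and the median of 0.08 joined preparations that differed. Over F1 and M1 the median was 0.24 with 13 of 16 genes above 0, and over M2 and F2 it was -0.20 with 2 of 16. The 20 targets of spliced XBP1 had a median of -0.07, with 0.04 over F1 and M1 and -0.13 over M2 and F2. Among them 1 was higher, Edem1, which helps to remove misfolded glycoproteins from the ER. It had 24.4, 25.5, 26.8 and 22.2 RPKM with DMSO and 37.9, 42.6, 38.8 and 39.9 with the inhibitor (0.67 ± 0.07, adjusted p = 0.0445), with no overlap. Of 30 targets of ATF4 and CHOP, 1 was higher (Cth, 0.66) and 2 lower, and the median was -0.09.

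**Figure D4:**
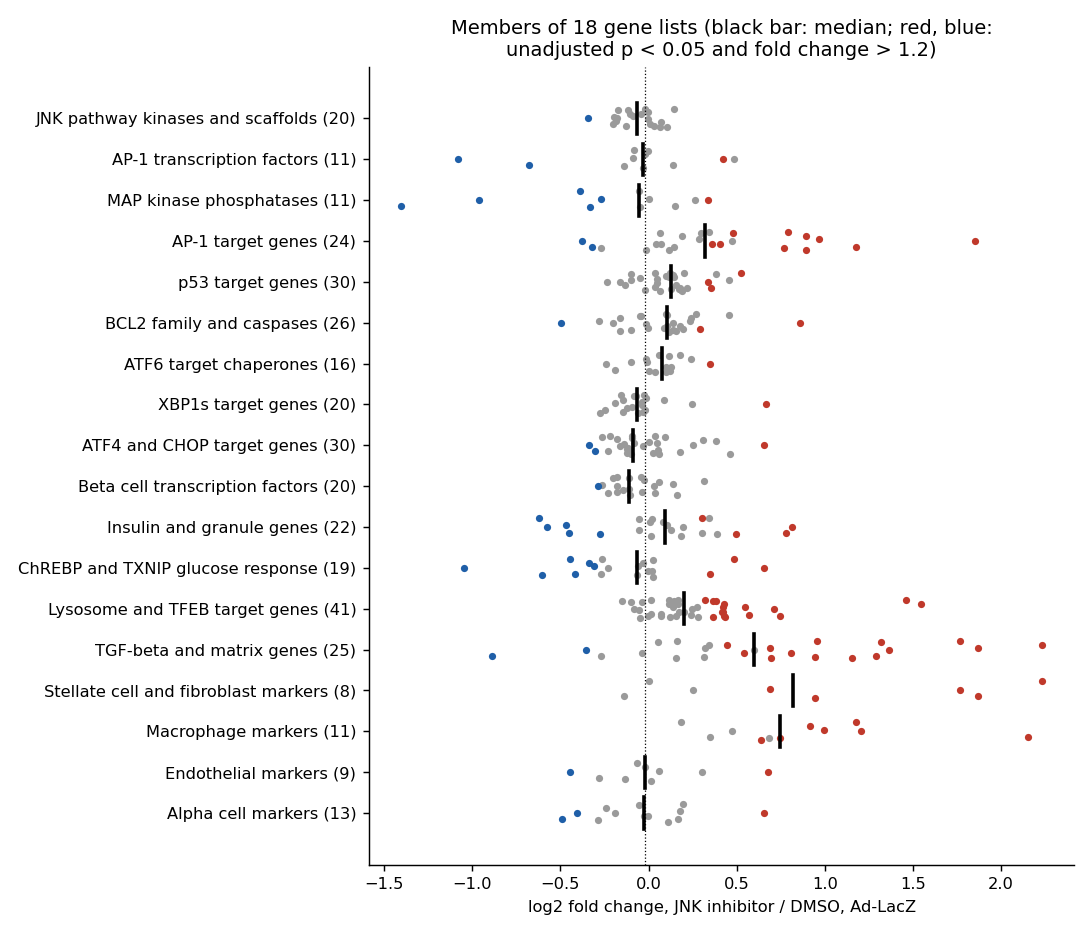
Log2 fold changes (inhibitor over DMSO in Ad-LacZ) of the tested members of 18 gene lists, 1 dot a gene, with the number tested in brackets; red and blue genes had an unadjusted p under 0.05 and a fold change above 1.2, bars are list medians and the dotted line is the median of all genes. The matrix, stellate cell and macrophage lists have the medians farthest to the right (0.60, 0.82 and 0.75), while the medians of the kinase, p53 and ER stress lists lie near the line.

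Further lists are given as counts, beside the 4.89% of all genes higher and 3.47% lower. At the unadjusted p, 4 of 22 NRF2 targets were higher and 1 lower (median 0.13), as were 3 of 24 sterol synthesis genes with 0 lower (0.15), 5 of 18 interferon-stimulated genes with 0 lower (0.12), 4 of 14 NF-kB targets and chemokines with 0 lower (0.07), and 4 of 23 immediate-early genes with 2 lower (0.07). Over F1 and M1 alone the medians were 0.03 for interferon-stimulated genes, -0.04 for NF-kB targets and -0.11 for immediate-early genes, against 0.17, 0.30 and 0.25 over M2 and F2. For cell cycle genes the counts were 2 of 23 higher and 0 lower (0.13), and for G1 cyclins and their inhibitors 1 of 14 higher and 2 lower (0.00). Glycolysis had 1 of 19 higher (0.01), heat shock proteins 2 of 18 higher and 1 lower (0.02), insulin signalling 2 of 19 higher (0.04), and glucose sensing and excitability 1 of 24 higher and 2 lower (-0.05). Disallowed and dedifferentiation genes had 4 of 12 higher (0.30, but -0.01 over F1 and M1), axon guidance 4 of 22 (0.14, and 0.04 over F1 and M1), nerve injury genes 3 of 20 (0.10), duct and acinar markers 3 of 8 (0.25), and AhR targets 0 of 3 (0.16), each with 0 lower. In the duct and acinar list 1 gene passed the adjusted p, Spp1, which is also given above among the matrix genes. Of the 8 members tested it was the only 1 that rose in all 4 pairs, and 14 of the 22 listed stayed below the filter. The list's summed RPKM was 322 to 490 with DMSO and 586 to 1207 with the inhibitor, higher in all 4 pairs. Spp1 alone had 93.0 to 221 RPKM with DMSO and 332 to 813 with the inhibitor, so the rise of the sum was mostly that of Spp1. Of 5 delta and PP cell markers, 2 were lower (median -0.02), and the 1 Schwann cell marker tested did not pass (-0.04).

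The same inhibitor was given to Ad-Cre cells, and these values are set beside those of Ad-LacZ. The comparisons have no library in common but come from the same 4 preparations. In Ad-Cre, 536 of 11503 genes were higher (4.66%) and 242 lower (2.1%) at the adjusted p and fold change. On RPKM without scaling the split was 204 higher and 715 lower with the median log2 change of all genes at -0.14, so directions in Ad-Cre depend on the scaling. The number called was 0 when F1, M1 or F2 was left out and 2392 without M2. The Ad-Cre inhibitor library of F2 was the shallowest, with 7.7 M reads. Its column name also has a prefix and an end code that no other library has, and their meaning is not stated. Of the 39 genes called in Ad-LacZ, 38 were tested there; 32 had the same sign, and 19 were called in the same direction. All 10 lower genes were also below 0 in Ad-Cre. Jun was at -0.95 ± 0.07, Dusp8 at -1.26 ± 0.10, Dusp16 at -0.91 ± 0.08, Txnip at -0.88 ± 0.11 and Klf11 at -0.65 ± 0.07, all called. Pcsk1 was at 0.91 ± 0.07, Nptx2 at 2.49 ± 0.15, Ctsz at 0.89 ± 0.11, Apoe at 0.97 ± 0.13 and Edem1 at 0.68 ± 0.15, of which Edem1 missed the adjusted p.

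The difference between the viruses was tested by the interaction of virus and inhibitor over all 16 libraries. No gene passed an adjusted p under 0.05 in limma, and 1414 of 12274 passed an unadjusted p under 0.05 (11.5%). Among the 39 genes 19 did so, 17 of them with a smaller rise or a fall in Ad-Cre; the Ad-LacZ values chose the 39 and also enter the difference, so nothing is read from that count. Nrcam was at 1.53 in Ad-LacZ and 0.68 ± 0.09 in Ad-Cre (interaction -0.86 ± 0.14, unadjusted p = 5.14e-05 and adjusted p = 0.0766, limma). It rose in all 4 pairs with either virus.

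The 6 genes of opposite sign were all higher in Ad-LacZ, and most were matrix genes. Col1a1 was at -0.74 ± 0.28 in Ad-Cre, Fn1 at -0.73 ± 0.19, Serpinf1 at -0.69 ± 0.28, Col6a3 at -0.32 ± 0.24, Rgs4 at -0.12 ± 0.15 and Aebp1 at -0.02 ± 0.13. None of these 6 passed the adjusted p in Ad-Cre. The matrix list had a median of -0.48 there and the stellate cell list of -0.50, against 0.60 and 0.82 in Ad-LacZ. The macrophage list was at 0.01 and the lysosome list at 0.42, against 0.75 and 0.20. The summed RPKM of the macrophage markers nevertheless went up in all 4 Ad-Cre preparations, from 104 to 254 in F1, 125 to 216 in M1, 281 to 360 in M2 and 242 to 282 in F2. The matrix sum of M2 was 1582 RPKM in Ad-LacZ with DMSO and 2561 with the inhibitor. In Ad-Cre it was 3901 with DMSO and 1762 with the inhibitor, so M2 had the widest range of the preparations. The immunoglobulin sum of M2 and F2 also changed in opposite directions. In Ad-Cre it was 311 and 343 RPKM with DMSO, and 64.6 and 4.15 with the inhibitor. In Ad-LacZ it was 19.4 and 2.45 with DMSO, and 2108 and 3128 with the inhibitor. Whether the opposite signs of the matrix genes came with this was not tested.

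**Figure D5:**
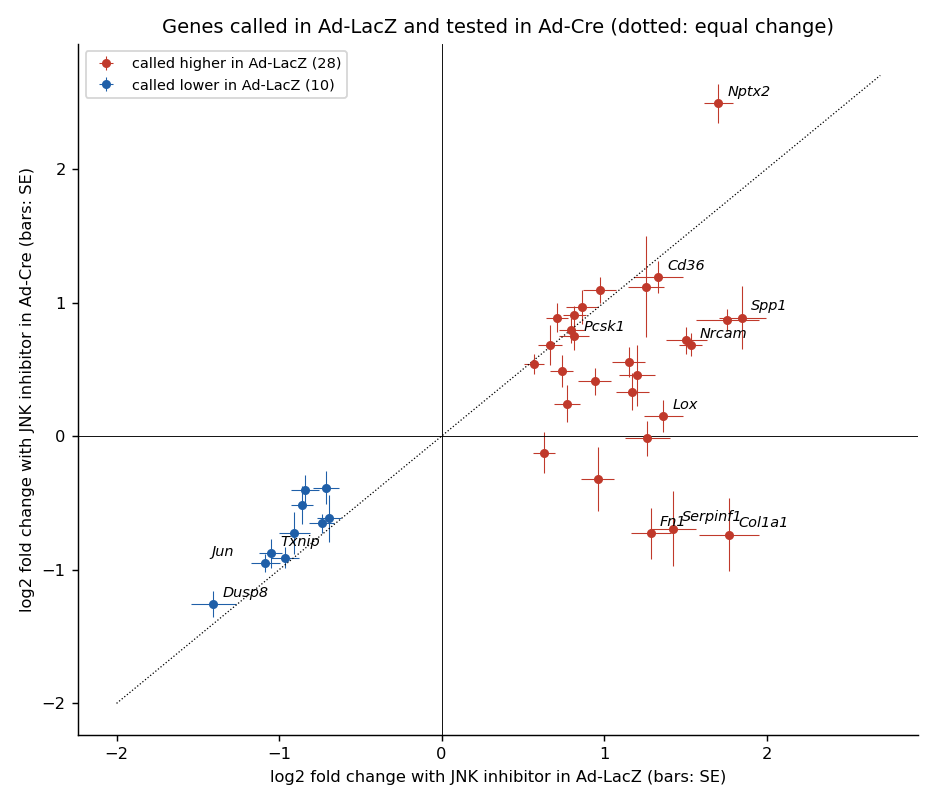
Log2 fold change with the inhibitor in Ad-LacZ (x axis) and in Ad-Cre (y axis) for the 38 called genes tested in both, with SE bars; the dotted line marks equal change. The 10 blue genes lie below 0 on both axes, whereas Col1a1, Fn1 and Serpinf1 lie above 1 on the x axis and below 0 on the y axis.

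The length of the list depended on the preparations. Since all 39 genes moved alike in all 4 pairs, leaving a pair out could not turn a direction. With only F1 and M1, all 39 had an unadjusted p under 0.05, and 35 passed the adjusted p in limma. Leaving out M1 or M2 left 0 genes at the adjusted p, with 724 and 639 at the unadjusted p, and leaving out F1 gave 139. In each of these fits all 39 still had an unadjusted p under 0.05 and a fold change above 1.2. The 39 were chosen by p in a fit that held the same libraries, so their p-values in any subset are not independent evidence. Without the block of preparations 23 genes passed the adjusted p, 12 of them among the 39.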

How the data were processed

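Islets of Grp78 flox/flox mice were cultured as dispersed cells, and polyadenylated RNA was sequenced. The authors aligned the reads to the mouse genome (their methods cite STAR; the submitters' processing notes name build GRCm38) and deposited 1 table of RPKM values. The step from counts to RPKM, the annotation and the strand setting are not given in the sources used here. The table has 3 further columns of sample values that match no label and were not used.

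Groups and preparation codes were taken from the labels. RPKM values were scaled by trimmed means of M values, transformed as log2(RPKM + 1), and fitted with limma 3.58.1 in R 4.3.3 (trend) for genes above 1 RPKM in at least 4 of 8 libraries, with the preparation as a block. All 16 libraries entered the interaction. Values printed for single libraries are RPKM as deposited. The libraries of a preparation are parallel cultures. Their deviations from the group means correlated within a code at r = 0.83 in M2 and 0.69 in M1, but only 0.32 in F1 and 0.13 in F2. Calls needed an adjusted p under 0.05 (or, where said, an unadjusted p under 0.05) and a fold change above 1.2. Depth was read from the steps of low RPKM values and is an estimate. An exact permutation test of 4 against 4 libraries cannot go below 0.0286, nor a sign test of 4 pairs below 0.125.

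The members and the 38 gene lists were chosen with earlier results of these data known. Genes named were the 12 largest called changes per direction that were alike in all pairs, filled by unadjusted p where fewer were called; called or defining members of the lists; Hspa5, the JNK kinases and the c-Jun genes; and genes said to be chosen later. Other called genes, list members past the unadjusted p and the genes at the threshold were added after their values were seen. Gene positions are from GENCODE vM21, and 25105 of 25105 genes matched. The fits were tested on simulated data. Alternatives covered scaling, pseudocount, filter, block, and leaving out preparations; 3 (a filter on the mean, limma-voom on recovered reads, and leaving out M2 and F2) were chosen after seeing the data.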

Additional observations from a re-analysis of the deposited data

Results flagged for a closer look

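In 8 of the 210 groups of 4 libraries examined for single values apart from the rest, 1 library lay beyond Dixon's 95% critical value; chance flags about 1 group in 20. In Ad-LacZ with DMSO these were M2 for Klf11 (9.38 RPKM against 6.85 to 7.06 in the other 3), Ctsz (53.9 against 44.1 to 45.5), Gla (10.5 against 8.25 to 8.44) and Plvap (11.1 against 4.21 to 5.21). Also apart were F2 for Ctsd (126 against 165 to 172) and F1 for Gcg (18702 against 12334 to 13268). With the inhibitor they were F1 for Jund (44.0 against 70.7 to 75.5) and M2 for Angptl7 (3.13 against 5.72 to 5.95).

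For 3 matrix genes, every preparation rose with the inhibitor in Ad-LacZ and every preparation fell in Ad-Cre. The difference of the log2 changes (Ad-Cre minus Ad-LacZ, limma) was -2.14 for Serpinf1, -2.04 for Fn1 and -2.18 for Postn, with adjusted p of 0.143, 0.149 and 0.143.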

How the results depend on the processing

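The 39 genes kept their direction under every alternative, which for left-out preparations follows from all 4 pairs moving alike. They passed the unadjusted p and fold change under all but the fit without the replicate block, where 33 did. Every alternative reused libraries that had chosen the 39, so passing is not independent evidence. The count at the adjusted p was far less stable. It was 19 on RPKM as deposited (17 higher, 2 lower), 0 with no filter, 3 with a filter at 0.1 RPKM, 23 without the replicate block and 112 with all 16 libraries in 1 fit (87 higher, 25 lower). Among alternatives chosen after seeing the data, it was 5 with a filter on the mean, 151 by limma-voom on recovered reads and 198 without M2 and F2. Leaving out 1 preparation gave 0 (without M1 or M2) to 139 (without F1).

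The count at the unadjusted p, 974, was 563 without the block, 639 to 1549 with 1 preparation left out, 1545 without M2 and F2, and 1005 with all 16 libraries (690 higher, 315 lower). In Ad-Cre, the 778 genes became 919 on RPKM as deposited (204 higher, 715 lower), 239 by quantile normalization (134 higher, 105 lower), 31 with no filter, 2 without the block, and 0 to 2392 with 1 preparation left out. The interaction gave 1 gene by quantile normalization and 0 otherwise. Of 105 named genes, 6 that missed the unadjusted p had log2 changes of both signs across the alternatives (Hspa5, Mapk8, Mapk9, Junb, Gcg and Pdx1); none that passed it changed sign, although Ins2, which ranks alike in every library, was at 0 by quantile normalization. The cause of these shifts was not tested. The fit had 3 residual degrees of freedom, and the adjusted p of the 39 genes lay between 0.0130 and 0.0490. Depth limits genes near the filter of 1 RPKM most.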
